A study of Mus musculus with 7 samples.

Results

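The Hox gene clusters are 4 runs of neighbouring genes for homeodomain transcription factors, and 38 of their protein-coding genes, of 22380 in the annotation, were followed here. Members were chosen by gene name. Each cluster was taken from its outermost member genes with 50 kb added on each side, and every peak lying wholly inside such a window was kept. These windows cover 885 kb and held 50 of 76683 CTCF peaks, 33 of 67369 Rad21 peaks, and 37 of the 52436 CTCF sites in the deposited list of classes. All libraries came from liver of male mice of the outbred strain Crl:CD1(ICR), the CD-1 mouse, at 8 weeks of age, as 4 libraries of chromatin immunoprecipitated for CTCF and 3 for the cohesin subunit Rad21. Fragments held by the antibody were sequenced (ChIP-seq), and a bound site appears as a pile of fragments, called a peak.

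The study asked which CTCF sites anchor domains and loops in the liver genome. The deposited lists pool all libraries of a factor, so no value per library and no spread between mice can be given, and no test between groups was possible. Peaks of the same cluster are not independent samples. In a piece of whole liver, a site bound in fewer cells and a site bound less in each cell cannot be told apart.

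Hox proteins assign position along the body axis of the embryo, and the order of the genes on the chromosome follows the order in which they are used along that axis. All members of a cluster are read from the same strand, from group 13, which acts at the posterior end, towards group 1, which acts in the hindbrain. Genes of the same group in different clusters are paralogs that arose when an ancestral cluster was duplicated. CTCF binds DNA through zinc fingers at a long motif that has a direction, and cohesin that extrudes a loop is held at CTCF sites in a manner that depends on this direction. CTCF sites inside the clusters are known as boundaries between active and silenced parts of a cluster in the embryo. Transcription was not measured in the data analysed here.

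On build mm9 the member genes spanned chr6:52112350-52210874 for HoxA, chr11:96055630-96229570 for HoxB, chr15:102751534-102867274 for HoxC and chr2:74506367-74603200 for HoxD. HoxA genes lie on the minus strand and those of the other clusters on the plus strand. Peaks are named here by cluster and by their order from the group 13 end, and positions are given in kb from the 5′ end of the group 13 gene in the direction of transcription. "Same strand" means that the CTCF motif lies on the strand that codes for the Hox genes of that cluster, so that it reads towards the group 1 end. Peak strength is given by the deposited score, 10 times the −log10 q-value, which rises with the number of fragments.

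The motifs that carry the pattern described below are shown first. They are the motifs of the 6 anchors of topologically associating domains (TADs, domains within which chromatin contacts are frequent), of the sites between the group 9 gene and its anterior neighbour in each cluster, and of the strong-motif site HoxB-5. Each was read from the mm9 reference (NCBIM37), 5′ to 3′ on the strand of the motif that the authors deposited. Capitals mark the 19 positions of the best match to a CTCF motif matrix, and lower case marks 5 bases of context on each side.
HoxA-3, chr6:52207114-52207142, plus strand: ttgtcAACACGAGGTGGCGCCCTTgatct
HoxA-4, chr6:52190529-52190557, minus strand: cagccGCCACGAGATGGCGCACTCccgat
HoxB-8, chr11:96123056-96123084, minus strand: gaccgACCTCTAGGCGGCGCCCTGgcgtt
HoxB-9, chr11:96140256-96140284, plus strand: cagtgGCCGCTAGATGGCATCCTTgctcc
HoxD-5, chr2:74511224-74511252, minus strand: aaacgCCCAGGAGATGGCGAGCGTgctcc
HoxD-6, chr2:74524531-74524559, plus strand: ctacaGCCACACGAGGGCGCGCTCatgtt
HoxA-5, chr6:52171797-52171825, minus strand: aaaatTCCAGGAGATGGCAGTGTGgctcc
HoxC-4, chr15:102818018-102818046, plus strand: aagtgAACGCGAGGTGGCGCTGTTgctca
HoxD-10, chr2:74540446-74540474, plus strand: atttgGCCACTAGAGAGCGCTGTTgctcc
HoxB-5, chr11:96085310-96085338, minus strand: cagagGCCAGAAGAGGGCGCCATTtttac

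The matrix was learnt from TAD anchors on chromosomes that carry no Hox cluster, and its commonest letters were NCCACNAGGGGGCNCNNNN, searched on both strands. On held-out chromosomes it matched best on the strand given by the authors' list for 96.8% (95% Wilson interval 96.5 to 97.1) of 12156 sites. A motif had been deposited for 31 of the 37 Hox sites with a class (83.8%, interval 68.9 to 92.3), beside 82.6% of all class-list sites. At 1 of these 31, HoxD-8, the matrix matched best on the other strand.

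The sites beside the group 9 genes did not have identical motifs. HoxB-9, between Hoxb9 and Hoxb8, HoxC-4, between Hoxc9 and Hoxc8, and HoxD-10, between Hoxd9 and Hoxd8, lie at matching places, and HoxA-5 lies between Hoxa9 and Hoxa7. Of the 19 motif positions, HoxC-4 shared 12 with HoxD-10 and 11 with HoxB-9, and HoxB-9 shared 12 with HoxD-10. HoxA-5 shared 11 with each of these. Over all 465 pairs of the 31 Hox motifs the median was 10 identical positions, and the range was 6 to 16. Over the 29 bases printed, HoxB-9, HoxC-4 and HoxD-10 had 19 in common in each of their 3 pairs, a value that 13 of the 465 pairs reached, and HoxA-5 had 17 in common with each of them, which 52 pairs reached. The median of all pairs over 29 bases was 14, and the range was 8 to 21. HoxA-4 and HoxD-6, each between the group 11 and group 10 genes, shared 15 of the 19 motif positions and 19 of the 29 bases, while HoxC-1, at the same place in HoxC, shared 12 and 15 with HoxA-4 and 10 and 13 with HoxD-6. Over the 19 motif positions the most alike pair joined sites from different places, HoxA-3 near Hoxa13 and HoxC-4. This pair shared 21 of the 29 bases, and HoxA-5 and HoxD-5, also from different places, shared 20. Both values exceed the 19 of the group 9 sites. All 4 of the group 9 sites nevertheless carried the motif on the same strand as their Hox genes.

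Most CTCF peaks lay within the gene spans. The spans of the member genes alone, 485 kb, held 35 of the 50 CTCF peaks (72.2 per Mb), and the 50 kb flanks held 15 (37.5 per Mb). Over all chromosomes there were 28.9 CTCF peaks per Mb, and the windows as a whole had 56.5. For Rad21 the windows had 37.3 peaks per Mb, beside 25.4 over all chromosomes. These densities are descriptions and were not compared with matched regions. Of 34 intervals between neighbouring members, 25 held a CTCF peak and 18 held a peak with a score of at least 1000. These counts were likewise not compared with intervals between other genes.

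**Figure D1:**
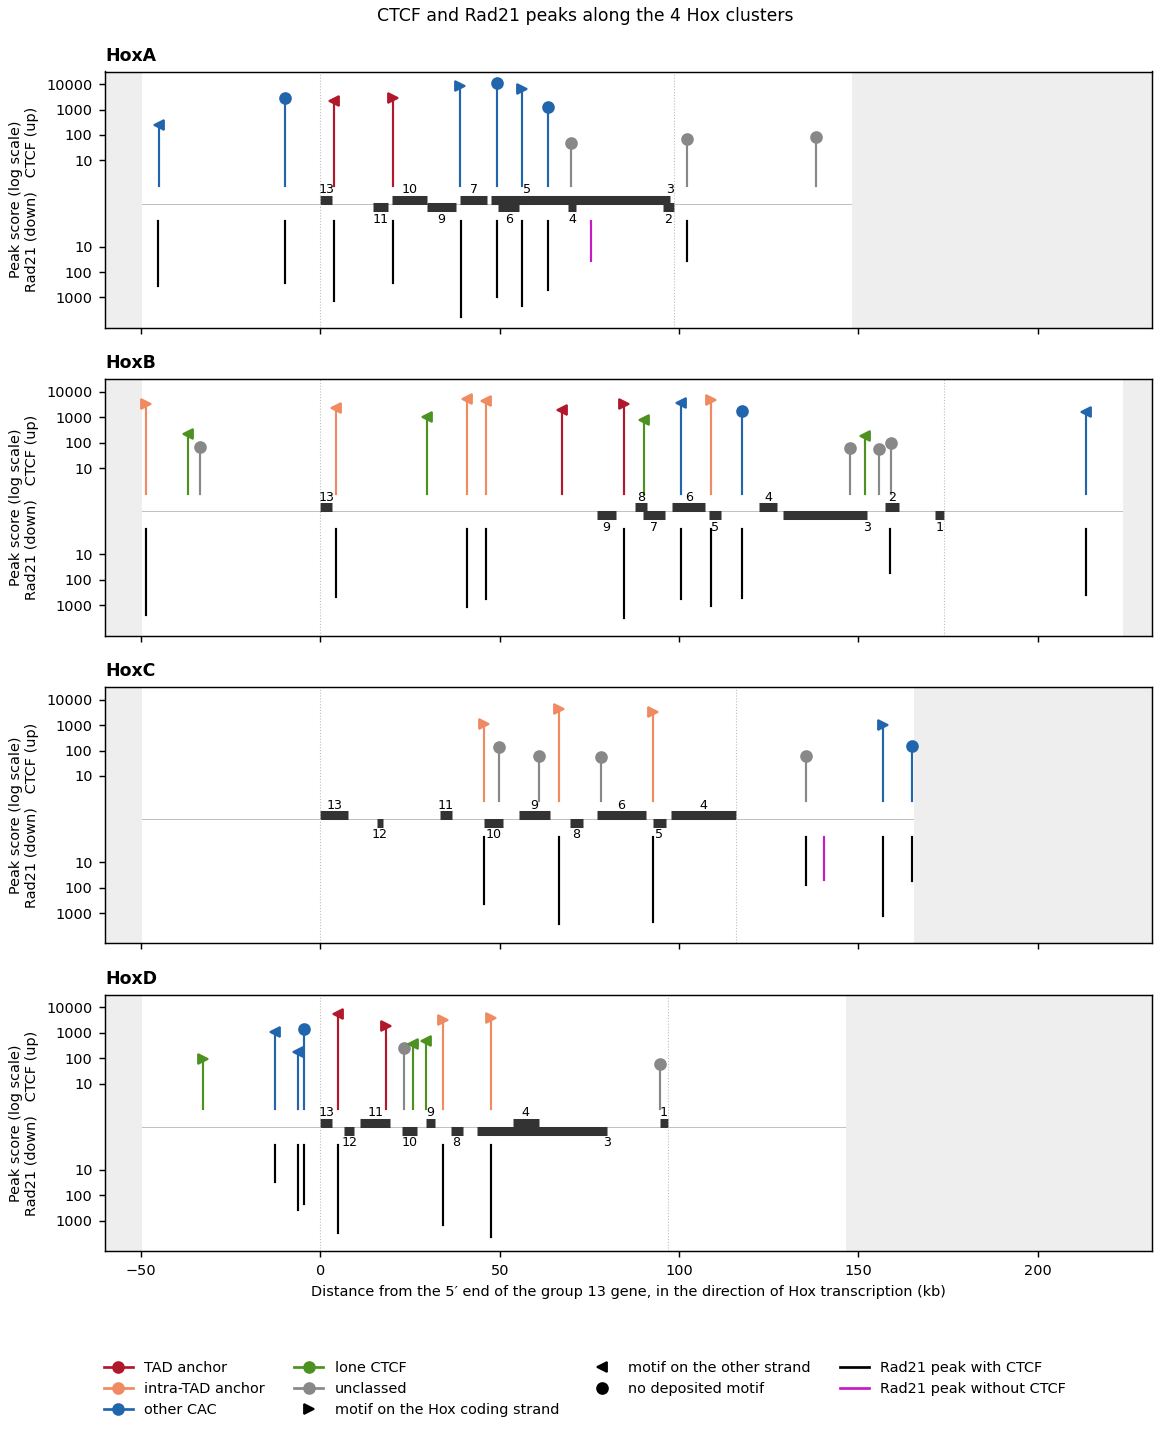
Positions of CTCF peaks (upward stems) and Rad21 peaks (downward stems) along each cluster, with the peak score on log axes and distance from the 5′ end of the group 13 gene in kb; numbered dark bars are the Hox genes, dotted lines mark the ends of the member genes and grey areas lie outside the windows. Arrowheads give the direction of the deposited CTCF motif relative to Hox transcription, and colours give the authors' class. From the group 4 gene to the anterior end CTCF scores stay at or below 187 in HoxA, HoxB and HoxD. HoxC has no peak there, HoxA and HoxD have 1 each, and this division was made after the values were seen.

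Peaks at the anterior ends were weak, in a division of the clusters that was made after their values were seen. From the group 4 coding region to the anterior end, the clusters together held 6 CTCF peaks in 119 kb, with scores of 49 to 187. Of these 6, 1 overlapped a Rad21 peak and 1 was in the class list. The rest of the gene spans held 29 CTCF peaks in 366 kb, with scores of 55 to 11035, of which 19 overlapped a Rad21 peak and 25 had a class. In HoxC this anterior stretch was only 2.12 kb long and held no listed peak, so the description rests on HoxA, HoxB and HoxD. In HoxB the density of peaks was about the same in both stretches, with 4 in the anterior 49.5 kb and 10 in the other 124 kb.

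HoxA held the strongest CTCF peaks of all windows. HoxA-6, between Hoxa7 and Hoxa6 and 107 bp from a start of Hoxa6, had a score of 11035 with 1023 fragments at its summit and ranked 518 among all CTCF peaks. Hoxa6 and Hoxa7 are known for patterning the thoracic skeleton. HoxA-6 had no motif in the class list, and the best match to the matrix there reached 8.53 bits, above 94.0% of class-list sites without a deposited motif but above only 8.73% of those with one on the held-out chromosomes. HoxA-5, in an untranslated exon of Hoxa7 at a Hoxa7 start, had a CTCF score of 8778 with 823 fragments. HoxA-7, at the start of Hoxa5, a gene known for its part in lung development, had a score of 6263 with 603 fragments. These 3 peaks lay within 17.2 kb of each other, and none of them was an anchor in the authors' list. The authors put all 3 among the other CAC sites, which have both cohesin and CTCF but were chosen as anchor of neither kind.

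Rad21 did not follow the order of CTCF at these 3 sites. The Rad21 score was 5957 with 579 fragments at HoxA-5, the strongest Rad21 peak of the windows, 2150 with 234 fragments at HoxA-7, and 923 with 121 fragments at HoxA-6. Per CTCF fragment there were 0.704, 0.388 and 0.118 Rad21 fragments in that order, beside a median of 0.563 (quartiles 0.342 and 0.889) over all 51621 CTCF peaks that share at least 1 bp with a Rad21 peak. The CTCF and Rad21 libraries differ in depth and antibody, so this ratio can be compared between sites but its level has no meaning of its own. HoxA-6 also lacked the flag for overlap with a peak of Stag1, one of the alternative subunits of cohesin, and carried the flag of Stag2, the other one.

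Posterior to them lay the 2 TAD anchors of HoxA. HoxA-3, between Hoxa13, a gene of limb ends and the urogenital tract, and Hoxa11, had a CTCF score of 2105 and a Rad21 score of 1430. Its motif was on the strand opposite to the Hox genes. HoxA-4, in an untranslated exon of Hoxa10 at a start of that gene, had the same-strand motif, a CTCF score of 2789 and a Rad21 score of 275. The 2 motifs point away from each other over 16.6 kb, as the authors' rule requires of TAD anchors paired at the same boundary. Anterior to Hoxa5, HoxA-8 still had a score of 1227 with Rad21 at 519 and no deposited motif, and HoxA-9, 429 bp from a start of Hoxa4, had a score of 49. HoxA-2, 9.57 kb outside Hoxa13, had a CTCF score of 2846 without a deposited motif and a Rad21 score of 269, and the other flank peaks of HoxA had scores of 67, 80 and 258.

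HoxB, the longest cluster, held 18 CTCF peaks in its window and 7 anchors, more than any other cluster. Between Hoxb13 and Hoxb9, a gap of the cluster without other Hox members, 5 peaks followed each other with every motif opposite to the Hox strand. In order from Hoxb13 they were HoxB-4 with a score of 2431, HoxB-5 with 1040, HoxB-6 with 5240, HoxB-7 with 4294 and HoxB-8 with 2021. HoxB-4, HoxB-6 and HoxB-7 were intra-TAD anchors, which the authors predicted to hold loops inside TADs, with Rad21 scores of 477, 1188 and 565. HoxB-8, in a coding exon of the predicted gene Gm53, was a TAD anchor without a listed Rad21 peak.

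HoxB-5 paired a strong motif with no cohesin peak. Its motif score of 21.1 was the highest deposited among the Hox sites, and its match of 22.5 bits exceeded 95.7% of class-list sites with a motif on the held-out chromosomes. Its CTCF peak, of 118 fragments, stood at the 69.2 percentile of all CTCF peaks. No Rad21 peak overlapped it, it carried none of the flags of Stag1, Stag2 and Top2b (a topoisomerase often found beside CTCF), and the authors classed it as lone CTCF.

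From Hoxb9 onwards the motifs of HoxB lay on both strands. HoxB-9, the second TAD anchor, lay between Hoxb9 and Hoxb8 on the same strand as the genes, with a CTCF score of 3295 and a Rad21 score of 3276, the strongest Rad21 peak of HoxB. It stood 17.2 kb from HoxB-8 and pointed away from it, as the rule for paired TAD anchors requires. HoxB-10, where untranslated exons of Hoxb8 and Hoxb7 overlap, was a lone site with a score of 760 and an opposite motif that scored 8.28. HoxB-11, in an intron of Hoxb6, had a score of 3787, Rad21 at 581 and an opposite motif. HoxB-12, in an untranslated exon of Hoxb5, was a same-strand intra-TAD anchor with a score of 4789 and Rad21 at 1029.

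HoxB-13, between Hoxb5 and Hoxb4, a regulator known from blood stem cells, had a score of 1816 with Rad21 at 526 and no deposited motif. Anterior of it the scores were 64 at HoxB-14, 187 at HoxB-15, 57 at HoxB-16 and 94 at HoxB-17. HoxB-15, in a coding exon of Hoxb3, nevertheless had a deposited motif score of 20.7 on the opposite strand. In the flanks, HoxB-1, in an intron of Ttll6 and 48.2 kb outside Hoxb13, was a same-strand intra-TAD anchor with a CTCF score of 3312 and Rad21 at 2334. HoxB-18, 41.4 kb from Hoxb1, had a score of 1699, Rad21 at 405 and an opposite motif, while HoxB-2 and HoxB-3 had scores of 213 and 67 and no Rad21 peak.

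HoxC differed from the other clusters in having no TAD anchor and no motif opposite to its genes. No CTCF or Rad21 peak was listed in the 50 kb outside Hoxc13 nor at Hoxc13, Hoxc12 and Hoxc11. The first peak, HoxC-1, lay 45.5 kb into the cluster and 36 bp from the start of Hoxc10, a gene of the lumbar region and hindlimb, with a CTCF score of 1134 and Rad21 at 429. HoxC-4, between Hoxc9 and Hoxc8, had scores of 4147 for CTCF and 2661 for Rad21. HoxC-6, at the start of Hoxc5, had 3247 and 2287. All 3 were intra-TAD anchors on the same strand, at distances of 21.0 and 26.1 kb from each other.

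The other CTCF peaks within HoxC were weak, with scores of 141 at HoxC-2, 61 at HoxC-3 and 55 at HoxC-5, and none had a Rad21 peak or a class. The anterior flank held HoxC-7, HoxC-8 and HoxC-9, with CTCF scores of 61, 992 and 151. HoxC-8, 43.2 kb from a start of Hoxc4 and on the same strand as the genes, had a Rad21 score of 1283. Its ratio of 1.28 Rad21 fragments per CTCF fragment was the highest in the windows.

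In HoxD the TAD anchors lay at the group 12 and group 11 genes. HoxD-5, between Hoxd13 and Hoxd12, had a motif opposite to the genes, a CTCF score of 5317 and a Rad21 score of 2986. HoxD-6, in an untranslated exon of Hoxd11, a gene of the forearm skeleton, had a same-strand motif, a CTCF score of 1834 and no listed Rad21 peak. They were 13.4 kb apart and pointed away from each other, as the rule for paired TAD anchors requires. Then followed 3 peaks without Rad21 around Hoxd10 and Hoxd9, with scores of 256 at HoxD-7, 379 at HoxD-8 and 487 at HoxD-9. The deposited motifs of the lone sites HoxD-8 and HoxD-9 were opposite to the genes, although both lie anterior to HoxD-6. The intra-TAD anchors HoxD-10, between Hoxd9 and Hoxd8, and HoxD-11, in an intron of Hoxd3 between the last exons of Hoxd8 and Hoxd4, had CTCF scores of 3269 and 3837. Both were on the same strand, and HoxD-11 had the strongest Rad21 peak of the cluster at 4340, beside 1509 at HoxD-10. Anterior of HoxD-11 the only CTCF peak among the genes was HoxD-12 at Hoxd1, with a score of 61.

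The flank on the Hoxd13 side held 4 CTCF peaks, and no peak was listed in the flank beyond Hoxd1. HoxD-2 lay in a coding exon of Evx2, a homeobox gene next to Hoxd13, and had a CTCF score of 1041 with a motif score of 20.9, opposite to the Hox strand. Its Rad21 peak had a score of 30 and 17 fragments, the weakest in the windows, and its ratio of 0.116 was the lowest. HoxD-4, 4.36 kb outside Hoxd13, had a CTCF score of 1432 and Rad21 at 227 without a deposited motif. HoxD-3 had 171 and 376 with an opposite motif, and HoxD-1 was a lone site with a score of 94 and a same-strand motif.

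Read along the genes, the anchors changed strand once within the gene span of each cluster that had TAD anchors. Among the 15 anchors within the gene spans, 6 had a motif opposite to the Hox genes and 9 had a same-strand motif. All 6 opposite anchors (1 in HoxA, 4 in HoxB, 1 in HoxD) lay posterior to every same-strand anchor of the gene span of their cluster. The only anchor in the flanks, HoxB-1, was same-strand but lay posterior to the 4 opposite anchors of HoxB. The change of strand fell between Hoxa13 and Hoxa10, between Hoxb13 and Hoxb8, and between Hoxd13 and Hoxd10. In HoxA and HoxD this was near the posterior end, from 3.72 to 20.3 kb and from 4.82 to 18.2 kb into the cluster, and in HoxB it was nearer the middle, from 67.4 to 84.7 kb into 174 kb. In each case it fell between the 2 TAD anchors of the cluster. For a TAD boundary the authors accepted a pair of anchors only if the motifs pointed away from each other. For 2 TAD anchors of the same boundary the change of strand is therefore fixed by this rule. Whether the 2 anchors of each cluster were chosen for the same boundary was not checked. In HoxA they were the only anchors, and in HoxD the only opposite anchor was a TAD anchor. The authors also used motif strand, with peak scores, to choose intra-TAD anchors, so the order of the anchors was given no test.

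Taking all 31 motif sites, anchors or not, 14 lay on the Hox coding strand (45.2%, interval 29.2 to 62.2). The count was 3 of 5 in HoxA, 3 of 13 in HoxB, 4 of 4 in HoxC and 4 of 9 in HoxD. Neighbouring motif sites formed 27 pairs. Of these, 5 pairs were convergent (18.5%, interval 8.18 to 36.7, beside 24.2% of all neighbouring class-list motif sites), 5 were divergent (18.5%, beside 24.2%) and 17 were tandem (63.0%, interval 44.2 to 78.5, beside 51.6%). The interval of each share held the share over all sites. HoxA and HoxC had no convergent pair, HoxB had 3 and HoxD had 2.

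For each of the 4 classes the interval of its share in the Hox windows held the share in the whole list. Of the 37 class-list sites, 6 were TAD anchors (16.2%, interval 7.65 to 31.1, beside 11.2% of all), 10 were intra-TAD anchors (27.0%, interval 15.4 to 43.0, beside 17.3%), 14 were other CAC sites (37.8%, interval 24.1 to 53.9, beside 51.4%) and 7 were lone CTCF sites (18.9%, interval 9.48 to 34.2, beside 20.1%). Anchors of either kind made up 43.2% (interval 28.7 to 59.1), beside 28.4% of all class-list sites, which lay just below the interval. A further 13 of the 50 CTCF peaks had no class (26.0%, interval 15.9 to 39.6, beside 31.6% of all CTCF peaks). These intervals hold counting error alone, without the variation from mouse to mouse, and fragments read without molecular identifiers are not independent molecules.

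Rad21 overlapped 31 of the 50 Hox CTCF peaks (62.0%, interval 48.2 to 74.1, beside 67.3% of all CTCF peaks). By cluster it overlapped 9 of 11 peaks in HoxA, 10 of 18 in HoxB, 6 of 9 in HoxC and 6 of 12 in HoxD. Peaks with Rad21 had a median CTCF score of 2789 and those without one had 141, beside 777 and 107 over all CTCF peaks. The ranges overlapped, from 61 to 11035 with Rad21 and from 49 to 2021 without it, and the highest without it were the TAD anchors HoxB-8 and HoxD-6. Of the 6 Hox TAD anchors 4 had a Rad21 peak (66.7%, interval 30.0 to 90.3), beside 92.2% of all TAD anchors. All 10 intra-TAD anchors had one, beside 96.8% of all intra-TAD anchors. The authors drew intra-TAD anchors only from CTCF peaks that overlap a cohesin peak, and filtered them by Rad21 strength as well. Their rule for TAD anchors asks for no cohesin peak. Rad21 at intra-TAD anchors is therefore largely set by their selection, and no contrast with TAD anchors is drawn from it.

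**Figure D2:**
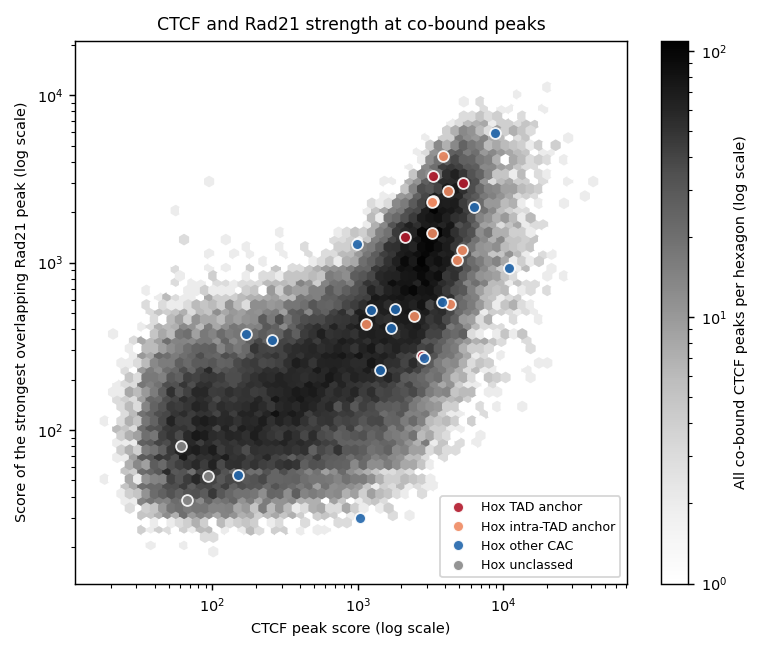
CTCF peak score (x axis, log scale) against the score of the strongest overlapping Rad21 peak (y axis, log scale), with all 51621 co-bound CTCF peaks as grey hexagons and the 31 Hox peaks as points coloured by class. The Hox points run along the cloud, and the point at the bottom with a Rad21 score of 30 is HoxD-2 in Evx2.

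Across the 31 co-bound Hox peaks strong CTCF peaks tended to have strong Rad21 peaks, with Spearman's rho of 0.756, beside 0.720 over all 51621 co-bound peaks. This is a description, since peaks of a factor share the same libraries and both scores depend on local background. The median of Rad21 fragments per CTCF fragment was 0.536 in the Hox windows (quartiles 0.273 and 0.759). It was 0.523 at the 22 Hox sites with a deposited motif and 0.321 at the 6 class-list sites without one. Over all co-bound sites the order was the other way round, with 0.453 at sites with a motif and 0.696 at class-list sites without one. With 6 Hox sites whose ratios ran from 0.118 to 0.674, this contrast was not tested.

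The median CTCF score was 1087.5 in the windows (95% order-statistic interval 256 to 2105), beside 321 over all CTCF peaks, a value that the interval held. It was 1834 within the gene spans (interval 487 to 3269) and 213 in the flanks (interval 80 to 1432), and with flanks of 20 kb it was 1432 (interval 379 to 2846), so that for the gene spans alone and the narrower window 321 lay below the interval. Among peaks with a score of at least 100 the Hox median was 1927.5, beside 665 over all such CTCF peaks. For Rad21 the median was 526 in the windows (interval 345 to 1283), beside 164 over all Rad21 peaks, below the interval. It was 1029 (interval 519 to 2287) within the gene spans and 248 (interval 48 to 405) in the flanks, where the interval held 164. Among Rad21 peaks with a score of at least 100 it was 976, beside 319 over all such Rad21 peaks. By class, the Hox medians were 2447 for TAD anchors, 3574.5 for intra-TAD anchors, 1565.5 for other CAC sites, 379 for lone sites and 64 for peaks without a class. Over the whole lists these medians were 2433, 2999.5, 701, 217 and 73. The interval of each Hox median by class held its whole-list value, as with 258 to 6263 for other CAC sites. The summits of Hox CTCF peaks held 22 to 1023 fragments, so the weakest of them rest on few fragments.

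**Figure D3:**
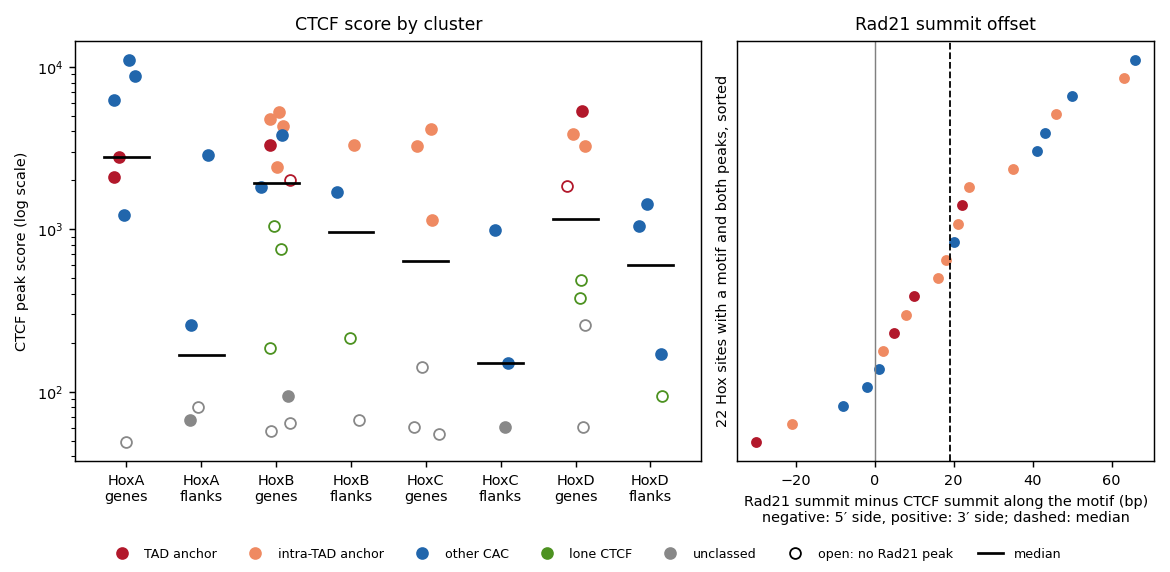
Left, CTCF peak score (log scale) of each peak by cluster, within the gene spans and in the 50 kb flanks, coloured by class and open where no Rad21 peak overlapped, with black lines at the medians. Right, position in bp of the Rad21 summit relative to the CTCF summit, along the motif, for 22 co-bound Hox motif sites. Of these, 18 lie on the 3′ side (positive), and the median is 19 bp, beside 17 bp over all 35443 co-bound motif sites.

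The Rad21 summit lay on the 3′ side of the CTCF summit, read along the motif, at 18 of 22 co-bound Hox motif sites. Their median offset was 19 bp (interval 2 to 41) and the range was −30 to 66 bp. Among all 35443 co-bound motif sites the quartiles were −7 and 41 bp around a median of 17 bp. The share of these on the 3′ side was not counted, so 18 of 22 has no matching share beside it. The largest Hox offsets were 66 bp at HoxA-5 and 63 bp at HoxC-4, while the other group 9 sites, HoxB-9 and HoxD-10, had 10 and 21 bp. HoxA-3, the TAD anchor by Hoxa13, had the most negative one at −30 bp, followed by HoxB-1 at −21 bp.

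Overlap flags for Stag1, Stag2 and Top2b peaks came with the class list from public data. The columns have no header, and their names rest on the order in which the study describes them. Stag1 was flagged at 24 of the 37 Hox sites (64.9%, interval 48.8 to 78.2, beside 70.6% of all class-list sites), Stag2 at 29 (78.4%, interval 62.8 to 88.6, beside 88.1%) and Top2b at 23 (62.2%, interval 46.1 to 75.9, beside 54.8%). All 10 intra-TAD anchors had both Stag flags, beside 94.8% of all intra-TAD anchors with Stag1 and 97.5% with Stag2. Of the 6 TAD anchors all had Stag2, beside 95.3% of all TAD anchors, and 3 had Stag1, beside 89.9%. The TAD anchors without Stag1 were HoxA-4, HoxB-8 and HoxD-6, which had a Rad21 score of 275, no Rad21 peak and no Rad21 peak, while those with Stag1 had Rad21 scores of 1430, 3276 and 2986.

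None of the 7 lone Hox sites carried any of these flags. The upper bound of the interval for 0 of 7 is 35.4%, and over all lone CTCF sites the shares were 26.9% for Stag1, 57.5% for Stag2 and 18.0% for Top2b. The lone Hox sites had CTCF scores of 94 to 1040 and deposited motif scores of 8.28 to 21.1, and 5 of them lay within the gene spans.

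Rad21 peaks without CTCF (cohesin-non-CTCF, CNC) were few and weak, 2 of 33 (6.06%, interval 1.68 to 19.6, beside 22.7% of all Rad21 peaks). With summits within 100 bp as the rule it was 4 of 33 (12.1%, interval 4.82 to 27.3, beside 36.8% of all), with a reciprocal overlap of 50% it was also 4 (beside 33.7%), and among peaks with a score of at least 100 it was 0 of 26 (upper bound 12.9%, beside 15.5%). The first of the 2 lay in an intron of Hoxa3, 490 bp from a Hoxa3 start, with a score of 36 and 18 fragments. The second lay 27.1 kb from Hoxc4 in the anterior flank, with a score of 48 and 21 fragments.

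Few Hox genes had a peak within 1 kb of an annotated start. CTCF was found there for 13 of the 38 genes (34.2%, interval 21.2 to 50.1, beside 56.3% of all protein-coding genes), and Rad21 for 8 (21.1%, interval 11.1 to 36.3, beside 53.4%). With a start zone of 500 bp the counts were 12 and 8, and with 2 kb they were 19 and 11. No share over all protein-coding genes was computed for these zones, so the contrast is given for 1 kb alone. The Hox genes were not matched with other genes in any property. By cluster CTCF was at a start of 5 of 10 genes in HoxA, 3 of 10 in HoxB, 2 of 9 in HoxC and 3 of 9 in HoxD, and Rad21 was at a start of 5, 1, 2 and 0. Both were at a start of 7 genes, which were Hoxa5, Hoxa6, Hoxa7, Hoxa10, Hoxb5, Hoxc5 and Hoxc10, and neither was at a start of 24. Where start zones of neighbouring or overlapping genes meet, the peak cannot be assigned to a single gene.

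Of the 8 TALE homeodomain genes analysed here, whose proteins bind DNA with Hox proteins, 8 had CTCF at a start and 6 had Rad21, beside 56.3% and 53.4% of all protein-coding genes. With an incomplete list of this size nothing is read from the counts. The CTCF score at a start ran from 95 at Pbx2 to 1085 at Pknox2, and Pbx2 and Meis3 had no Rad21 peak there. Of 13 genes around the clusters, 9 had CTCF at a start and 8 had Rad21, beside 56.3% and 53.4% of all protein-coding genes. The homeobox genes next to the posterior ends, Evx1 and Evx2, had neither, while Snx11, beyond the anterior end of HoxB, had a CTCF score of 4883 and a Rad21 score of 206.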

How the data were processed

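Libraries of CTCF (4) and Rad21 (3) were pooled by the authors before mapping to mm9 with Bowtie2, with uniquely mapped reads kept, and peaks were called with MACS2. Per the study's methods blacklisted regions and peaks of PCR duplicates alone were then removed. The deposited score is 10 times the −log10 q-value, and the deposited p-value of each peak is on the −log10 scale. The deposited fold is a ratio of summit fragments to local background, with a pseudocount of 1 on both. The authors' class list holds pooled CTCF peaks found in several livers, with a motif score and strand.

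Fragments at each summit were recovered from the fold and the −log10 p. Depth per library at a peak is unknown. CTCF and Rad21 peaks with 1 bp or more in common counted as co-bound, with the strongest partner used. Genes and starts came from GENCODE vM1 and sequence from NCBIM37, whose chromosome names and lengths match mm9. Shares have 95% Wilson intervals and medians 95% order-statistic intervals. Scripts were tested on simulated data. The members, lists and landmark genes were chosen with earlier results of these data known. Described singly were every anchor in the windows, every CTCF peak and CNC peak among the genes, and the strongest peak of each kind per window, and other flank peaks were named after their values were seen. A further gene of the TALE list is not reported here. Alternatives changed the window and how a peak must lie in it, overlap rule, score minimum, start zone and measure of strength (fold in place of score). Software was samtools 1.23.1 with pysam 0.24.0, and pandas 2.3.3, SciPy 1.17.1, Matplotlib 3.10.9 and NumPy 2.4.6 under Python 3.11.15.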

Additional observations from a re-analysis of the deposited data

How the results depend on the processing

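Of 77 recomputed values of 15 results, 70 stayed within 1.5 times the count, or within the interval, of the value reported, 7 moved and 0 reversed. The number of Rad21 peaks was 33 and became 21 when the gene spans alone were used. The number of Rad21 peaks without CTCF was 2. It became 1 with windows of 0 kb or 20 kb on each side, 4 with 100 kb, 4 when co-binding needed summits within 100 bp or a reciprocal overlap of 50%, and 0 when both lists were limited to scores of at least 100. No paired analysis was possible because the lists pool all libraries of a factor and carry no replicate number, and for the same reason no library could be left out in turn. Depth limits the weakest peaks most, since the smallest Hox summits held 22 CTCF and 17 Rad21 fragments.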
